A study of Trichosurus vulpecula with 6 samples.

Results

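The genes described here build the inner root sheath of the hair follicle or regulate cells of its matrix and hair shaft. There were 8 on the list: 4 differentiation products (KRT25, KRT27, KRT71 and TCHH) and 4 transcription factors (HOXC13, FOXN1, MSX2 and LEF1). They were chosen with their levels in these libraries already known, so their levels are a description and carry no test. KRT25, TCHH and the 4 factors were found under their symbols, which gives 6 genes of the 18103 to which an assembled transcript was assigned. KRT27 and KRT71 matched no RefSeq symbol of the possum assembly (mTriVul1.pri) and no gene name in the transcript files, so no value is given for either.

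Ear punches were taken from adult female common brushtail possums (Trichosurus vulpecula), 3 with black and 3 with grey (agouti) fur. The animals were wild possums of the Dunedin population in New Zealand, sourced through pest control, and belonged to no inbred strain. Poly(A)-enriched, strand-specific RNA libraries were sequenced, and transcripts were assembled in each library separately. Neither the date of sampling nor the stage of the hair cycle was given in the sources used here.

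A hair follicle passes through growth (anagen), regression (catagen) and rest (telogen). During growth, matrix cells at the base of the follicle divide and leave upwards to form the hair shaft in the centre and the inner root sheath around it, a rigid sleeve that moulds the shaft and breaks down before the hair emerges. KRT25 and KRT27 are type I keratins and KRT71 a type II keratin of the inner root sheath, and trichohyalin, the product of TCHH, is the granule protein that binds keratin filaments there and in the medulla of the shaft. LEF1 carries Wnt signals to the matrix, MSX2 maintains differentiation of the shaft, and FOXN1 and HOXC13 activate keratin genes in the forming hair. Hair shaft keratins proper were not among the 8, so the products are called inner root sheath products below. Comparisons of products with factors therefore set inner root sheath products against factors of the matrix and shaft.

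Levels are given as TPM, the share of transcripts corrected for their length and expressed against the total of the library, summed over the transcripts of a gene. Depth was 7.58, 8.51 and 6.47 aligned gigabases in black replicates 1, 2 and 3 and 4.17, 8.37 and 10.2 gigabases in grey replicates 1, 2 and 3. All 6 libraries held abundant transcripts of epidermal genes such as SBSN and DSG1. Skeletal muscle genes summed to 3205 TPM in black replicate 1 and to between 3.14 and 6.53 TPM in the other 5 libraries. A pair of loci without a descriptive name (LOC118840599 and LOC310926) held 0.333%, 0.278% and 0.323% of TPM in black skin, against 8.69%, 0.556% and 0.869% in grey skin. The part of these loci and of depth, lowest in grey replicate 1, in the results below was not tested.

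KRT25 was low in black skin and very high in 1 grey library. It had 3.07, 2.90 and 2.85 TPM in black replicates 1, 2 and 3, against 687, 3.35 and 16.3 TPM in grey replicates 1, 2 and 3. In TPM the black values lay within a narrow band and all under the lowest grey value, though only just under it. The grey values spread 42.2-fold between the highest and the next. Counted as reads per aligned gigabase, KRT25 had 22, 22.1 and 20.5 in black skin, against 5090, 21.9 and 123 in grey skin. Grey replicate 2 thus lay among the black libraries on that scale, and its assembled transcript was the shortest, at 1593 nt. Reads of 120 bp behind these values numbered 167, 188 and 133 in black skin, against 21218, 183 and 1261 in grey skin. The difference in mean log2(TPM + 1), black minus grey, was -3.24 with a standard error of 1.68 from the limma fit (n = 3 each, 95% interval -7.25 to 0.77), and without grey replicate 1 it was -1.14.

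TCHH followed KRT25. It was listed at 0 in black replicate 1 and had 1.36 and 2.50 TPM in black replicates 2 and 3, against 199, 1.78 and 11.6 TPM in grey replicates 1, 2 and 3. Grey replicate 1 was 17.1-fold above grey replicate 3, which in turn was 4.64-fold above the highest black library. Grey replicate 2 lay among the black libraries, so the colours overlapped. The log2 difference was -3.24 (standard error 1.46, 95% interval -6.72 to 0.23), and -1.55 without grey replicate 1.

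**Figure D1:**
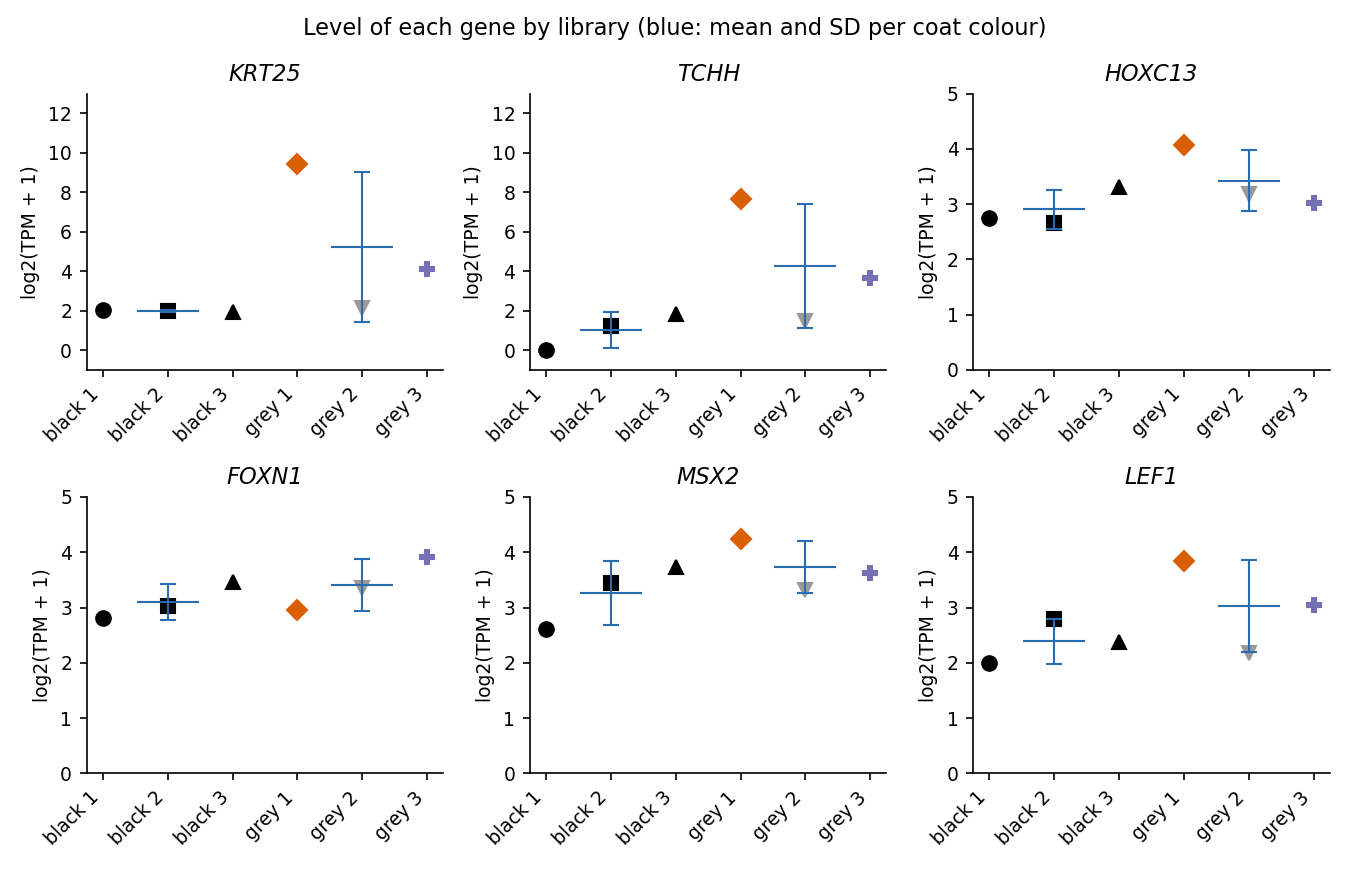
Level of the 6 measured genes in each library as log2(TPM + 1), black libraries to the left of grey, with the mean and SD of each colour in blue (n = 3). The KRT25 and TCHH panels have a longer axis than the others. KRT25 and TCHH stand far up in grey 1 and moderately up in grey 3, whereas the 4 factors stay between 1.99 and 4.24.

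The 4 transcription factors were present in every library, at levels between 2.97 and 17.9 TPM. HOXC13, a homeobox factor whose loss leaves mice and people without normal hair, had 5.73, 5.26 and 8.89 TPM in black replicates 1, 2 and 3, against 15.7, 8.15 and 7.10 TPM in grey replicates 1, 2 and 3. Grey replicate 1 was again the highest, but by 1.76-fold over the next library, and black replicate 3 exceeded grey replicates 2 and 3. The log2 difference was -0.52 (standard error 0.34, 95% interval -1.32 to 0.28), and -0.21 without grey replicate 1.

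FOXN1, the factor missing in nude mice, did not share the grey replicate 1 maximum. Its levels were 6.01, 7.10 and 10.0 TPM in black skin, against 6.79, 9.22 and 14.1 TPM in grey skin. Grey replicate 3 was the highest library and grey replicate 1 the second lowest of the 6. The colours overlapped, with a log2 difference of -0.31 (standard error 0.30, 95% interval -1.04 to 0.41). It was -0.17 without black replicate 1, -0.50 without black replicate 3, -0.54 without grey replicate 1 and -0.06 without grey replicate 3.

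MSX2, a homeobox factor of the matrix, had 5.09, 9.85 and 12.2 TPM in black skin, against 17.9, 8.99 and 11.3 TPM in grey skin, a log2 difference of -0.47 (standard error 0.37, 95% interval -1.34 to 0.40). The direction depended on the length of the assembled transcript. The main transcript was 2575, 1246 and 2492 nt long in black replicates 1, 2 and 3 and 1164, 1250 and 1320 nt long in grey replicates 1, 2 and 3, because its 3′ end lay 1378 and 1377 nt past the RefSeq end in black replicates 1 and 3 and at most 194 nt past it in the others. Counted as reads per aligned gigabase, without division by length, MSX2 had 54.9, 54.2 and 131 in black skin, against 88.6, 46.1 and 65.3 in grey skin. On that scale black replicate 3 was the highest and the log2 difference turned to 0.18. In TPM it was -0.14 without black replicate 1 and -0.22 without grey replicate 1.

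LEF1, the partner of β-catenin in Wnt signalling, varied most among the factors in TPM. It had 2.97, 5.98 and 4.20 TPM in black skin, against 13.4, 3.54 and 7.29 TPM in grey skin. Grey replicate 1 was 1.84-fold above the next library and grey replicate 2 was the second lowest, so the colours overlapped (log2 difference -0.64, standard error 0.45, 95% interval -1.71 to 0.43). Without grey replicate 1 the difference was -0.23, and without grey replicate 2 it was -1.06. LEF1 is also made by T cells. The 9 T cell genes tested, of 10 listed, summed to 21.7, 28.4 and 46.7 TPM in black skin, against 25.4, 38.8 and 28 TPM in grey skin. The T cell sum was thus highest in black replicate 3, and LEF1 in grey replicate 1.

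Of the 6 genes, all had a lower mean in black skin in TPM, and 5 were highest in grey replicate 1, FOXN1 being the exception. On the scale of reads per gigabase these counts were 5 and 4, since MSX2 left both. By comparison, 2598 of the 15605 genes tested (mean level 1 TPM or more), or 16.6%, were highest in grey replicate 1. By mean log2(TPM + 1), 6719 of the genes tested, or 43.1%, were lower in black skin. In TPM, TCHH, FOXN1, MSX2 and LEF1 were lowest in black replicate 1, where skeletal muscle genes summed to 3205 TPM. As reads per aligned gigabase, MSX2 was lowest in grey replicate 2 (46.1) and HOXC13 in black replicate 1 (57.2). The share of all genes that were lowest in black replicate 1 was not computed, and the part of muscle was not tested. No gene of the 6 was among those called between the colours by limma with Benjamini-Hochberg adjustment at 0.05, and 0 had an unadjusted p under 0.05. Over all genes 3 were called (0.0192%) and 360 had such an unadjusted p. In TPM the colours did not overlap for 1 gene of the 6, KRT25, which was lower in black skin. As reads per aligned gigabase KRT25 overlapped too. Over all genes, 2.27% did not overlap and were lower in black skin, and 4.09% did not overlap and were higher. Nothing was read from these counts, since the genes were chosen by the same values.

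Products and factors differed in how far they moved between libraries. From the lowest to the highest library, KRT25 spanned 241-fold, whereas HOXC13, FOXN1, MSX2 and LEF1 spanned 2.98-, 2.34-, 3.51- and 4.51-fold. Among all genes tested, 0.224% had a wider range in log2(TPM + 1) than KRT25 and 0.179% a wider range than TCHH. Grey replicate 1 set the top of both ranges. These shares are a description and carry no test, since the genes were chosen with their values known. For the factors this share was between 12.3% (LEF1) and 34.7% (FOXN1), within the ordinary range of genes in these libraries.

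Set against each other, products and factors gave each library a profile. KRT25 and TCHH together came to 3.07, 4.26 and 5.35 TPM in black replicates 1, 2 and 3, against 886, 5.14 and 27.9 TPM in grey replicates 1, 2 and 3. The 4 factors together came to 19.8, 28.2 and 35.4 TPM in black skin, against 53.7, 29.9 and 39.8 TPM in grey skin. In the 3 black libraries and grey replicate 2 the products were therefore well under the factors, at a ratio of 0.155, 0.151 and 0.151 in black skin and 0.172 in grey replicate 2. Grey replicate 3 was intermediate at 0.701, and only in grey replicate 1 did the products exceed the factors, at 16.5. In TPM the 6 libraries fell in the same order by both sums, from black replicate 1 through black replicate 2, grey replicate 2, black replicate 3 and grey replicate 3 to grey replicate 1. As reads per aligned gigabase, black replicate 1 stayed lowest and grey replicates 3 and 1 highest by both sums, but the 3 libraries between them were ordered differently. In bulk skin, fewer follicle cells and less RNA per cell cannot be told apart, nor can the number of follicles in a punch and their stage of the hair cycle.

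**Figure D2:**
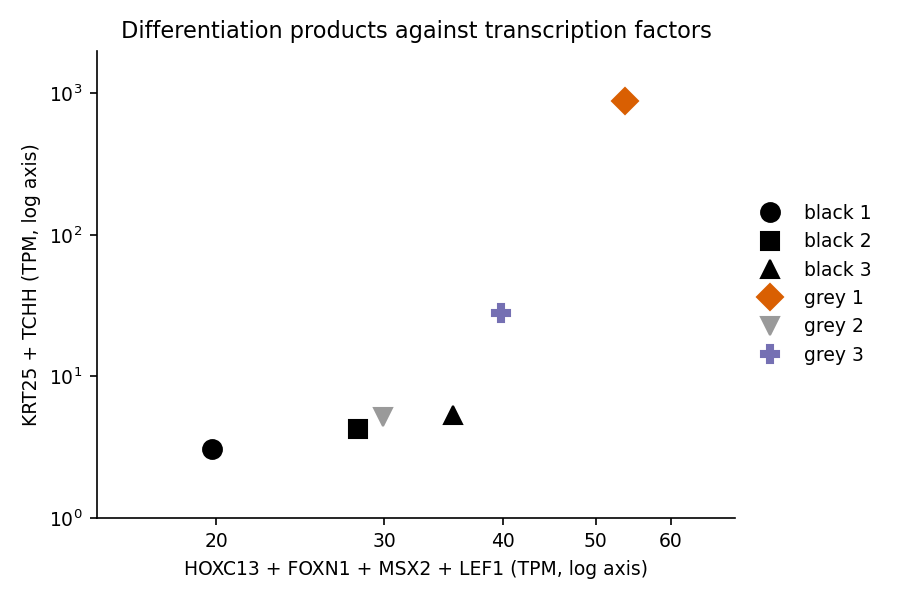
Sum of KRT25 and TCHH in TPM against the sum of HOXC13, FOXN1, MSX2 and LEF1 in TPM, 1 point per library, both axes logarithmic. The factor sum runs from 19.8 to 53.7 TPM and the product sum from 3.07 to 886 TPM, with the 3 black libraries and grey 2 together at the foot of the plot.

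The KRT25 signal was spread over the whole gene. KRT25 lies on the plus strand of chromosome 4, at 184273256 to 184285307 of mTriVul1.pri, and was assembled in every library as 1 transcript of 8 exons. Coverage ranged between exons from 7.24 to 22.5 in black replicate 1, from 7.94 to 20.7 in black replicate 2 and from 5.87 to 13.1 in black replicate 3. It ranged from 949 to 2713 in grey replicate 1, from 7.73 to 21.5 in grey replicate 2 and from 53.4 to 168 in grey replicate 3. The highest exon exceeded the lowest 2.23- to 3.15-fold, and exon 5 was the highest in all libraries but black replicate 2, where exon 7 was. High and low libraries thus had a like shape of coverage along the gene. A further transcript in grey replicate 1 (49.1 TPM, 9 exons) ran from the neighbouring gene LOC118846604 into KRT25, shared 291 nt with it and was counted for the neighbour.

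**Figure D3:**
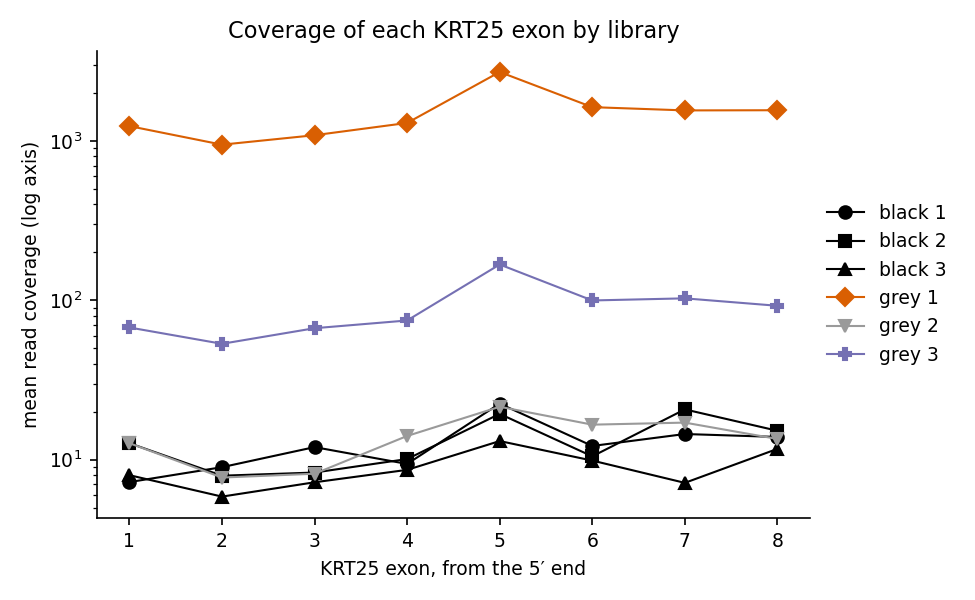
Mean read coverage of the 8 exons of KRT25, from the 5′ end, on a logarithmic axis, with 1 line per library. Grey 1 lies between 949 and 2713 at all exons and grey 3 between 53.4 and 168, above the 3 black libraries and grey 2, which run together.

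TCHH, on the plus strand of chromosome 7 at 44195860 to 44203447, was assembled only in part where it was low. Black replicate 1 had no transcript, and black replicates 2 and 3 had 2 and 3 transcripts that covered 64.4% and 45.4% of the exon bases inferred for the gene. In grey replicates 1, 2 and 3 there were 12, 2 and 8 transcripts, which covered 100%, 49.5% and 99.3%. Trichohyalin is built of many similar repeats, so the division of reads among these transcripts is uncertain, and the low TPM values rest on fragments of the gene.

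FOXN1 and HOXC13 kept the same main exon structure in every library, whereas MSX2 and LEF1 varied. FOXN1 (chromosome 7, minus strand, 36170224 to 36192710) had a main transcript of 9 exons whose first exon lay upstream of the RefSeq start, separated from the next exon by an intron of 26.86 kb, in all 6 libraries. The main HOXC13 transcript (chromosome 5, minus strand, 270704254 to 270710605) had 2 exons and ended 1545 to 1569 nt past the RefSeq 3′ end. LEF1 (chromosome 6, plus strand, 48843156 to 49015756) had a main transcript of 12 exons, and the start of its exon 3 took a pair of positions 3 nt apart. Shares were taken of the TPM of LEF1 transcripts that used either position. The upstream position carried 0%, 65.7% and 60.6% of it in black skin, against 85.3%, 46.1% and 86.6% in grey skin. These shares overlapped between the colours and are estimates from assembled transcripts without junction counts. MSX2, whose 3′ end is described above, lies on the plus strand of chromosome 3 at 89652788 to 89659721.

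Other genes of the follicle were read from 7 lists that, like the 6 genes, were drawn up with earlier results of these data known. Of 101 genes listed, 61 were measured and 56 tested, and limma called 0 of them, with 3 at an unadjusted p under 0.05. By their means, 33 were lower and 23 higher in black skin, beside 43.1% of all genes tested that were lower. Their median log2 difference was -0.09, against a median of 0.04 over all genes tested. The list genes were highest in grey replicate 1 in 26 cases (46.4%). Of the 56, 4 were at least 4-fold above the next library in grey replicate 1 on the TPM + 1 scale, as were KRT25 and TCHH and, over all genes, 40 (0.256%). The genes named in the next paragraph as single values outside the 3 most abundant of a list were chosen after their values were seen.

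The 4 genes were products and none a regulator. KRT26, an inner root sheath keratin, had 1.24, 1.57 and 0.75 TPM in black skin, against 41.3, 1.04 and 2.81 TPM in grey skin. TCHHL1, a trichohyalin-like protein, was listed at 0 in all libraries but grey replicate 1, where it had 10.6 TPM. Both had their maximum where KRT25 and TCHH had theirs. KRT35, a hair shaft keratin and the only one of 17 listed that carried a symbol, had 1.62, 2.31 and 4.77 TPM in black skin, against 37.8, 3.08 and 3.72 TPM in grey skin. S100A3, a calcium-binding protein of the hair cuticle, had 5.58, 2.84 and 6.97 TPM in black skin, against 102, 3.33 and 4.20 TPM in grey skin. Unlike KRT25, neither KRT35 nor S100A3 was raised in grey replicate 3, where both lay under black replicate 3.

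Of the 3 most abundant genes of the inner root sheath list, GATA3 was lower in each black library than in every grey one. KRT25 shared this in TPM, over a much larger range, but not as reads per aligned gigabase. TGM3 and CTSC did not share it. TGM3, a transglutaminase that cross-links inner root sheath and epidermal proteins, had 134, 132 and 136 TPM in black skin, against 101, 67.0 and 84.0 TPM in grey skin. CTSC, a protease that activates others, had 66.3, 69.6 and 111 TPM in black skin, against 66.8, 55.4 and 56.5 TPM in grey skin. GATA3, a factor of the inner root sheath lineage, had 34.6, 37.4 and 36.4 TPM in black skin, against 56.8, 39.3 and 42.4 TPM in grey skin. All of them are also expressed in other skin cells. TGM3 was higher in each black library than in every grey one, and none of the 3 was called. Among other shaft products, SELENBP1 had 38.1, 50.6 and 52.2 TPM in black skin, against 27.2, 31.0 and 12.9 TPM in grey skin, and CRYM 6.25, 7.78 and 7.90 TPM in black skin, against 12.4, 21.6 and 8.88 TPM in grey skin. The colours did not overlap for either gene. Over the 56 listed genes they did not overlap for 3 that were lower and 2 that were higher in black skin, beside the 2.27% and 4.09% of all genes given above.

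Regulators of the matrix and shaft had a smaller median difference between the colours than the 4 factors. Of 24 tested, 11 were highest in grey replicate 1 and 0 were 4-fold above the next library there. Their median log2 difference was -0.08, beside -0.50 for the 4 factors. Without grey replicate 1 the median of the 4 factors was -0.22, and that of the regulators was not taken. Both sets were drawn up with earlier results of these data known, and the contrast was not tested. CTNNB1, which encodes β-catenin, had 216, 204 and 231 TPM in black skin, against 237, 226 and 172 TPM in grey skin. HR, a corepressor needed for hair regrowth, had 156, 101 and 128 TPM in black skin, against 118, 140 and 143 TPM in grey skin. OVOL1, a zinc-finger factor downstream of Wnt, had 17.7, 40.9 and 54.4 TPM in black skin, against 39.3, 22.2 and 66.7 TPM in grey skin. The colours overlapped for each of these. SHH, the signal of the growing matrix, was listed only in grey replicate 1, at 1.42 TPM, too low for the test, and the same held for FGF5, a growth factor that ends anagen in mice, at 1.33 TPM.

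Companion layer and outer root sheath genes were highest in grey replicate 1 in 3 cases of 5, among them SOX9, a stem cell factor, with 19.2, 27.3 and 23.2 TPM in black skin, against 52.6, 17.1 and 35.9 TPM in grey skin. BARX2 had 32.6, 29.7 and 22.6 TPM in black skin, against 29.1, 22.2 and 43.2 TPM in grey skin, and TFAP2B 42.0, 22.5 and 17.4 TPM in black skin, against 26.5, 23.4 and 18.4 TPM in grey skin. SOX9 is also a cartilage factor, and 5 of 6 cartilage genes were highest in grey replicate 1. The 6 cartilage genes tested summed to 187, 266 and 228 TPM in black skin, against 490, 220 and 233 TPM in grey skin, led by ACAN and COL2A1. The part of cartilage in these levels was not tested.

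Genes of the dermal papilla, the mesenchyme that instructs the matrix, were highest in grey replicate 1 in 6 cases of 9. WIF1, a Wnt inhibitor, had 211, 680 and 341 TPM in black skin, against 695, 313 and 330 TPM in grey skin. FGF7, a growth factor for keratinocytes, had 12.5, 19.9 and 12.0 TPM in black skin, against 33.2, 16.4 and 23.9 TPM in grey skin, and SOX18 10.5, 10.2 and 20.6 TPM in black skin, against 15.7, 10.9 and 9.54 TPM in grey skin. The colours overlapped for WIF1, FGF7 and SOX18. Of 8 measured genes linked to telogen and catagen, FGF5 was found in grey replicate 1 alone, as given above, and 0 of the 7 tested were highest there. Their log2(TPM + 1) was also taken relative to each gene's median over the 6 libraries. The median of the 7 was then highest in grey replicate 1, at 0.20, with grey replicate 2 next at 0.04. DKK3, the most abundant, had 84.9, 135 and 205 TPM in black skin, against 139, 108 and 104 TPM in grey skin, NFATC1 had 22.9, 19.4 and 21.4 TPM in black skin, against 22.5, 20.2 and 24.1 TPM in grey skin, and FOXC1 had 13.7, 14.3 and 10.7 TPM in black skin, against 21.1, 21.6 and 13.1 TPM in grey skin. FGF5 is on this list too, but was under the level for the test.

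Proliferation genes, which mark dividing matrix cells but also the basal epidermis, did not peak where the products did. Their sum was 98.2, 112 and 219 TPM in black skin, against 143, 163 and 88.6 TPM in grey skin. Of 12 genes, 9 were highest in black replicate 3 and 2 in grey replicate 1. Over all genes tested these shares were 17.2% and 16.6%. The most abundant were MKI67, BIRC5 and CCNB1. MKI67 had 25.0, 20.4 and 31.2 TPM in black skin, against 23.8, 25.7 and 14.1 TPM in grey skin. Grey replicate 3, second in KRT25 and TCHH, had the lowest proliferation sum.

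**Figure D4:**
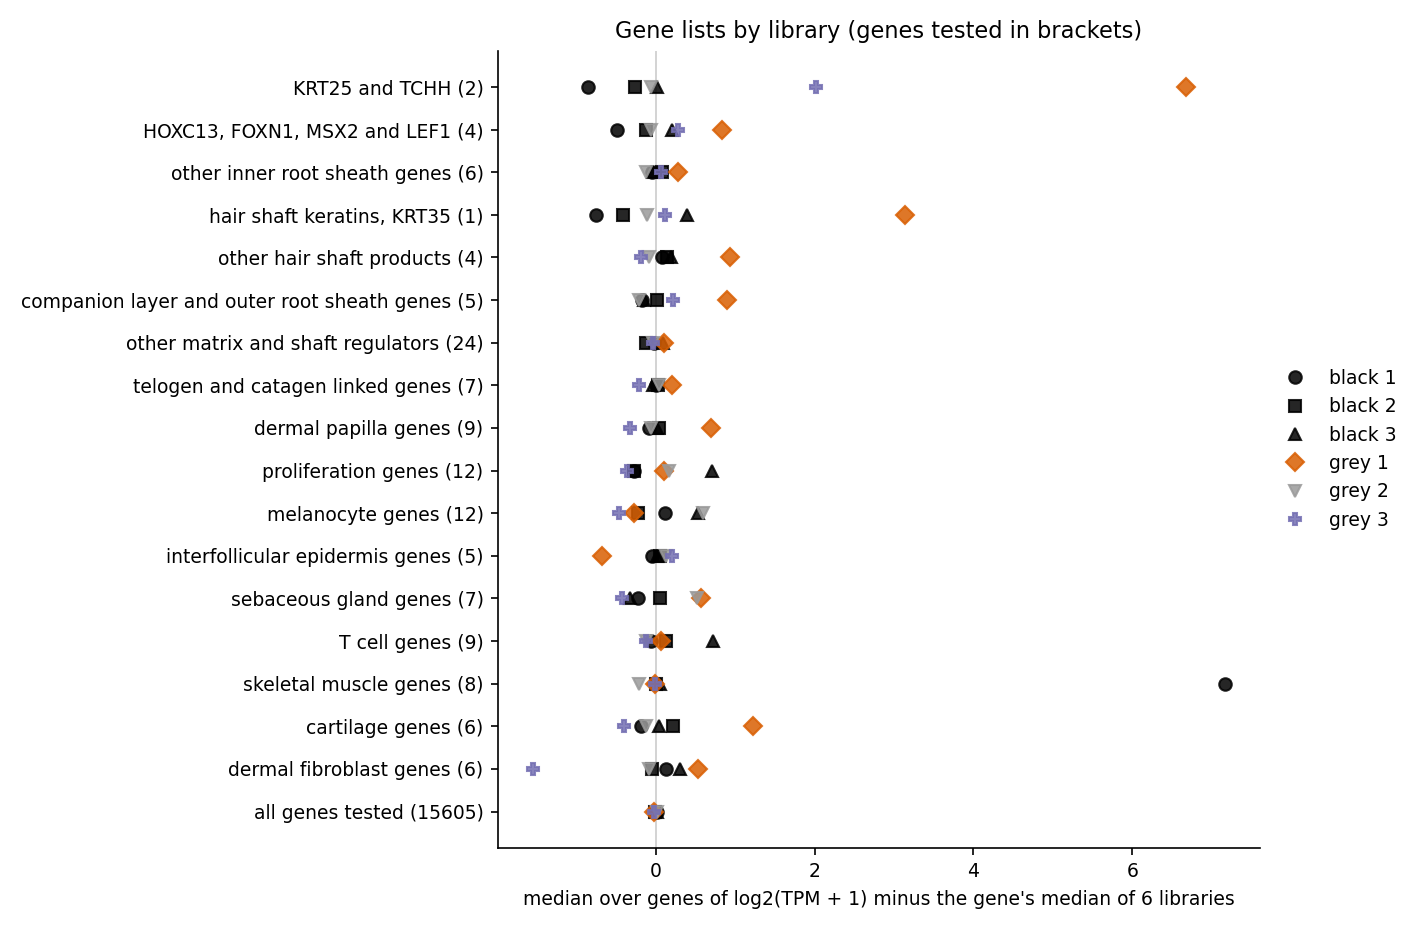
Median over the genes of each list of log2(TPM + 1) minus the median of that gene over the 6 libraries, with 1 symbol per library and the number of genes tested in brackets. Grey 1 lies farthest right for KRT25 and TCHH (6.68), the 4 factors (0.83), KRT35 (3.14) and cartilage genes (1.22). It also does so for the other lists of follicle genes (0.10 to 0.93), sebaceous gland genes (0.57) and dermal fibroblast genes (0.53). It lies farthest left for interfollicular epidermis genes (-0.68), and black 1 stands apart for skeletal muscle genes (7.17).

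Genes of other cell types also varied between the libraries. Over all genes tested, 3438 of 15605 were lowest in grey replicate 1. Of 5 interfollicular epidermis genes, 4 were lowest there. The sum of all 5 was 7073, 7281 and 7256 TPM in black skin, against 4683, 8166 and 9419 TPM in grey skin. Of 12 melanocyte genes, 5 were lowest in grey replicate 1. The sum of all 12 was 183, 125 and 291 TPM in black skin, against 103, 300 and 106 TPM in grey skin. Sebaceous gland genes summed to 2021, 3404 and 1686 TPM in black skin, against 3349, 4181 and 1839 TPM in grey skin, and dermal fibroblast genes to 2811, 2401 and 2773 TPM in black skin, against 3758, 2424 and 996 TPM in grey skin. None of these sums ordered the libraries as KRT25 and TCHH did, and their part in the levels of the 6 genes was not tested.

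The keratin loci themselves held more genes with the pattern of KRT25. The stretches of chromosome read here were chosen after the values were seen, so the counts from them are a description. In eutherian mammals the inner root sheath keratins lie together in the type I and type II keratin clusters. Between KRT20 and KRT222 on chromosome 4, where KRT25 and KRT26 lie, and between KRT77 and KRT7 on chromosome 5, there were 27 protein-coding genes without a symbol of their own. Of these, 23 were tested and 8 were at least 4-fold above the next library in grey replicate 1, 3 on the type I side and 5 on the type II side. These 8 had at most 5.54 TPM in black skin, against 16.6 to 268 TPM in grey replicate 1, and in 7 of the 8 grey replicate 3 came second.

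The 3 with the largest excess over the next library were named after their values were seen. LOC118850368 (chromosome 5, 272461321 to 272473974) had 1.51, 0.81 and 1.48 TPM in black skin, against 268, 1.56 and 8.68 TPM in grey skin. LOC118846654 (chromosome 4, 184244822 to 184250431) had 0.78, 0.52 and 0.59 TPM in black skin, against 114, 1.82 and 4.72 TPM in grey skin. LOC118850438 (chromosome 5, 272432673 to 272445736) had 1.89, 1.21 and 0.68 TPM in black skin, against 136, 1.21 and 5.63 TPM in grey skin. All 3 repeated the order of KRT25 at the top, with grey replicate 1 first and grey replicate 3 second. Which human or mouse keratin each corresponds to was not determined, so none can stand for KRT27 or KRT71. KRT25, TCHH, the 4 list genes and the 8 genes of the keratin loci made up 14 of the 40 genes with that excess in grey replicate 1. Nothing was read from this count, since the genes and loci were chosen with values of these libraries known.

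**Figure D5:**
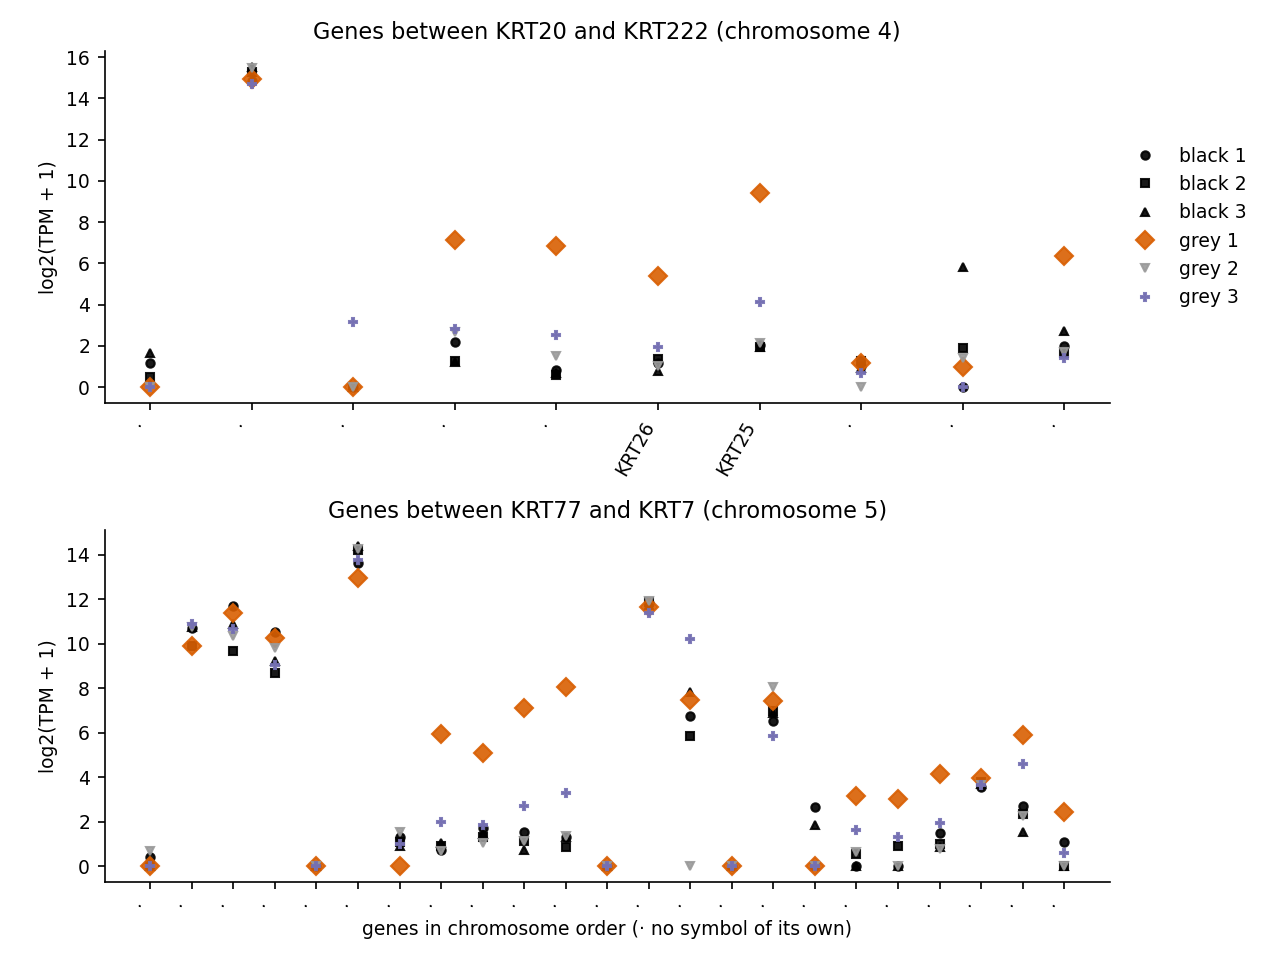
Level of each gene between KRT20 and KRT222 and between KRT77 and KRT7 in chromosome order, as log2(TPM + 1), with 1 symbol per library and a dot under genes without a symbol. Runs of neighbouring genes, KRT25 and KRT26 among them, are highest in grey 1, and other genes of the same loci are high in all libraries or in other ones.

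Keratin-associated proteins, which fill the hair shaft between keratin filaments, had another split between the grey libraries. They were identified by the names that the annotation used for assembly gives, and were chosen after their values were seen. KRTAP7-1 had 0.51, 1.01 and 0.52 TPM in black skin, against 47.5, 0.50 and 22.8 TPM in grey skin. KRTAP8-1 was listed at 0 in black replicate 1 and had 0.63 and 1.34 TPM in black replicates 2 and 3, against 19.6, 0.48 and 11.7 TPM in grey skin. Transcripts named KRTAP3-2 lay at a pair of loci, with grey replicate 1 over grey replicate 3 by 1.83-fold at each. With all transcripts of the locus summed, LOC118848949 had 10.4 TPM in grey replicate 1 and 13.9 TPM in grey replicate 3, the opposite order, and LOC118848955 had 59.2 and 23.8 TPM. The excess of grey replicate 1 over grey replicate 3 was 2.09-fold for KRTAP7-1 and 1.68-fold for KRTAP8-1, against 42.2-fold for KRT25 and 17.1-fold for TCHH. Copies of such genes can share reads, so their single values are uncertain.

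Over 11912 genes that carry a symbol, likeness to KRT25 and TCHH was measured as the root mean square difference of centred log2(TPM + 1) over the 6 libraries. The most like was PRR9, at 0.81. It was listed at 0 in black replicates 1 and 3 and had 0.98 TPM in black replicate 2, against 184 and 20.5 TPM in grey replicates 1 and 3 and a listed 0 in grey replicate 2. KRT26 (1.10), PHKG2 (1.17), CALHM4 (1.20) and LY6G6D (1.24) came next, while KRT25 and TCHH themselves lay at 0.35 from their mean. The genes most like the 4 factors were SLC6A2 (0.09), ZBTB11 (0.11), SOGA1 (0.11), RXYLT1 (0.13) and BLM (0.13). These lay closer to the mean of the factors than MSX2 (0.16), HOXC13 (0.27), LEF1 (0.33) and FOXN1 (0.43) did.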

How the data were processed

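Ear punch skin of 3 black and 3 grey possums was analysed. Trimming (Trim Galore, version 0.6.10), mapping (HISAT2, version 2.2.1), removal of amplicon reads and assembly by library (StringTie, version 2.2.0) were done by the authors. The deposited files give coverage, FPKM and TPM per transcript. These are not counts, so no count model was used. Reads are exon coverage multiplied by length and divided by 120 bp, and aligned bases come from the ratio of coverage to FPKM.

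The RefSeq gene table (mTriVul1.pri) gives spans without exons or strand. Both were inferred from transcripts that matched a span (at least 0.5 of the joint span, or 80% inside), and each transcript was assigned to the gene of its strand with the largest exon overlap, otherwise by the gene name in the file. Of 274079 transcripts, 231999 were assigned by overlap and 1318 by name, and 40762 to no gene. TPM was summed per gene, with 0 where no transcript was assigned. Since KRT27 and KRT71 were unmatched, the planned median of 4 products rests on KRT25 and TCHH. The table gives no gene descriptions or sequences, so classes by description and promoter motifs were not analysed here.

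Colours were compared with limma (version 3.58.1, with a trend of variance on level, in R version 4.3.3) on log2(TPM + 1) over 15605 genes whose mean reached 1 TPM, 2-sided, with Benjamini-Hochberg adjustment at a threshold of 0.05. The scale understates changes of low genes. The procedure was tested on simulated data. The labels give replicate numbers only. By the paper's account the samples came from 3 grey and 3 black possums, so p-values measure the spread between these animals. The genes described and the lists were chosen with earlier results of these data known. Named genes were the 8 listed, list genes past the threshold (0), the 3 most abundant of each list, and the 5 most like each class; not all are printed. Alternatives were pseudocounts, filters, scalings, variance models, a replicate block and leaving out each library; reads per aligned gigabase were added after seeing the data. Figures were drawn with Python (version 3.11.15).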

Additional observations from a re-analysis of the deposited data

How the results depend on the processing

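The median log2 difference, black minus grey, was -3.24 over KRT25 and TCHH and stayed between -2.78 and -4.31 under other pseudocounts, filters, scalings and variance models, and between -1.34 and -4.71 when 1 library was left out, the smallest being without grey replicate 1. Over the 4 factors it was -0.497, between -0.378 and -0.548 under the same settings and between -0.220 and -0.667 with 1 library left out, again smallest without grey replicate 1. No gene of the 6 changed sign except MSX2, with 0.182 as reads per aligned gigabase. Assignment by the gene name in the files alone gave no value for any of the 6.

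The count of genes called by limma was 3 in the fit reported. It was 1 with a mean of at least 5 TPM, 0 by gene names in the files alone (30 at an unadjusted p under 0.05), and 0 with the replicate block (364 at an unadjusted p under 0.05). It ranged from 0 (without grey replicate 2, 511 at an unadjusted p under 0.05) to 4 (without grey replicate 1) when 1 library was left out, and was 1 without black replicate 2. Listed hair genes called were 0 in each of these settings. The replicate block left both medians at -3.24 and -0.497. Same-numbered libraries did not deviate together (r = -0.03, 0.01 and -0.06 across genes). The labels do not say what the numbers stand for, and these correlations cannot settle it. The TCHH values of black replicates 2 and 3 and grey replicate 2 rest on partial transcripts, and the cause was not tested.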
